A study of Mus musculus with 2 samples.

Results

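The 10 genes described here mark cholangiocytes, the epithelial cells that line the bile ducts, and the ductular cells that share many of their transcripts: Krt8, Krt18, Krt19, Spp1, Epcam, Sox9, Anxa2, Cd24a, Tspan8 and Cldn4. They were picked by gene symbol as known markers, at a time when earlier results of these data were known, and every probe set with 1 of these symbols in the platform annotation was taken. This gave 19 probe sets for 9 of the 10 genes, among 22626 probe sets and 12393 named genes. No probe set carried the symbol Spp1, which encodes the secreted phosphoprotein osteopontin, in the annotation used, and Spp1 was not analysed here. The study hybridised liver RNA to Affymetrix arrays, and all the mice lacked apolipoprotein E and ate a high-fat diet. One array, titled orujo and from here on the orujo array, represents a high-fat diet to which olive oil's unsaponifiable fraction was added, the minor components that are not fatty acid esters. The other, titled olive and called the olive oil array, represents a high-fat diet with added olive oil. Sex, age, the duration of feeding and the number of animals behind each array are not known here. With 1 array per diet there is no spread between animals, so no test and no p-value is given.

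Bile duct epithelium is a simple epithelium. Its cytoskeleton holds the keratin pairs of hepatocytes, K8 and K18, together with the biliary keratins K7 and K19, which hepatocytes of the adult liver normally lack. The transcription factor SOX9 marks biliary cells and acts, with Notch signals, in forming bile ducts, and EPCAM, CD24 and claudins mark the surface and the junctions of the duct cells. In several kinds of liver injury, small ducts and progenitor-like cells that carry these markers expand around the portal tracts, which is called the ductular reaction. Bile ducts make up a small part of the liver, and in RNA of whole tissue fewer cells of a type and less RNA per cell cannot be told apart.

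Most of the marker probe sets gave a low signal on both arrays. The limit used for this is the median signal of both arrays pooled, 35.6 arbitrary intensity units, which stands in for detection calls, and a probe set above it on both arrays is called measured. Of the 19 marker probe sets, 6 were measured (31.6%), 1 lay above the limit on the olive oil array alone, and 12 lay below it on both arrays (63.2%). Of all 22626 probe sets, 46.2% were measured and 46.3% lay below the limit on both. The 6 measured probe sets belonged to Krt8, Krt18, Anxa2 and Tspan8. Krt19 reached the limit on 1 array, and Epcam, Sox9, Cd24a and Cldn4 did not reach it with any probe set. The 4 measured genes are also expressed outside ducts, as is Cd24a, which like Krt19, Epcam, Sox9 and Cldn4 was not measured.

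**Figure D1:**
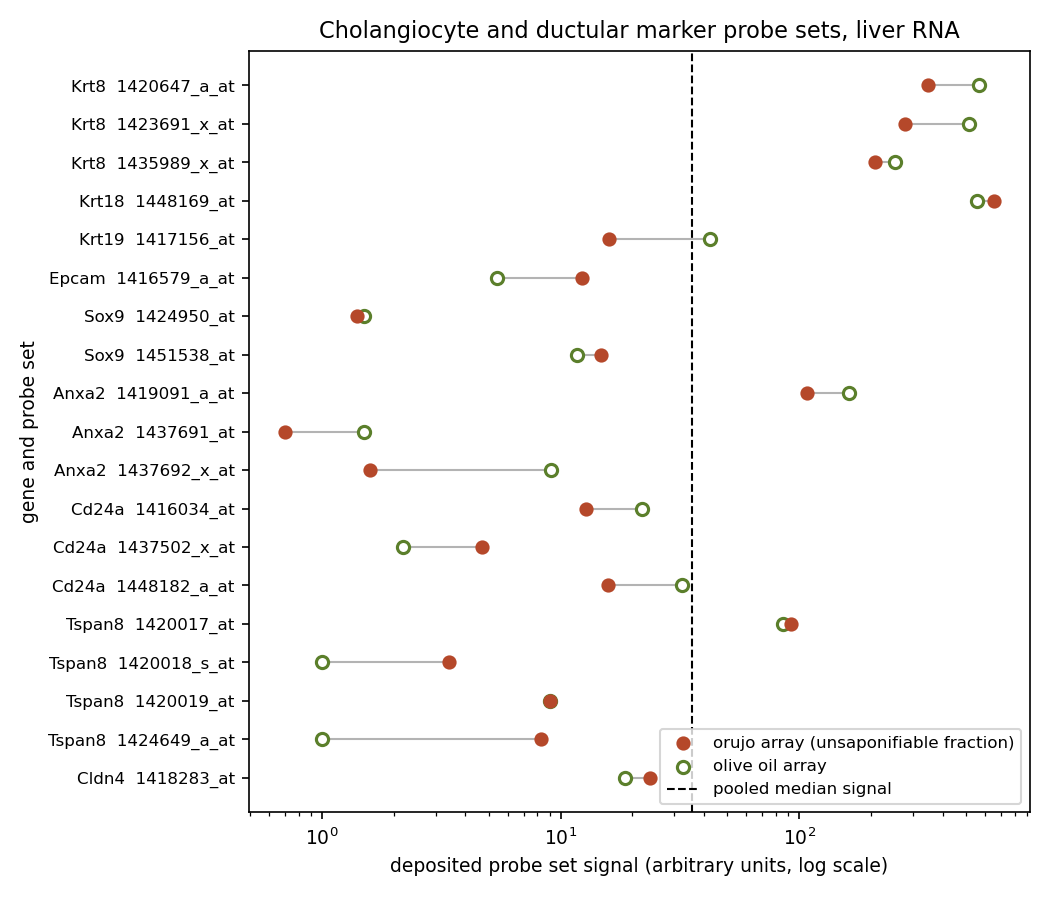
Deposited signal of each marker probe set in arbitrary intensity units on a log axis, with the orujo array as filled points, the olive oil array as open points and a dashed line at the pooled median of 35.6. The 3 Krt8 probe sets, Krt18, 1 Anxa2 and 1 Tspan8 probe set lie right of the line on both arrays; Krt19 crosses it, and the other 12 lie left of it.

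Krt8, which encodes the type II keratin of simple epithelia, had a lower signal on the orujo array in each of its 3 probe sets. Probe set 1420647_a_at had a signal of 344.8 on the orujo array and 564.1 on the olive oil array, 1.64-fold lower. Probe set 1423691_x_at had 277.3 on the orujo array and 512.4 on the olive oil array, 1.85-fold lower. Probe set 1435989_x_at had 207.8 on the orujo array and 250.7 on the olive oil array, 1.21-fold lower. All 3 therefore shared a direction and differed in size, with a mean log2 ratio (orujo array minus olive oil array) of −0.62 ± 0.32 (SD over 3 probe sets). These probe sets read the same RNA on the same arrays, and the SD holds no variation between animals. The suffixes _a_at and _x_at mark probes that also match other transcripts, of the same gene for _a_at and possibly of other genes for _x_at.

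No array was repeated, so the size of these ratios could only be set beside the disagreement between probe sets of the same gene on the same arrays, which holds no variation between animals or arrays. In 2057 genes with at least 2 measured probe sets, the log2 ratios of the brightest pair of probe sets differed with an SD of 0.43, which corresponds to 0.30 for a single probe set and is called probe set noise here. The Krt8 log2 ratios of −0.71 and −0.89 lay more than 2 times that value from 0, and the one of −0.27 lay within it. Over the 2616 brightest measured probe sets, which include the Krt8 probe sets at −0.71 and −0.89, the log2 ratios had an SD of 0.47, and these 2 lay between 1 and 2 times that SD from 0. The 3 Krt8 ratios spanned a range of 0.62. The SD of 0.43 is that of a difference between 2 probe sets and gives no scale for a range over 3.

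Krt18, the type I keratin that pairs with K8 in hepatocytes and duct cells, did not share the direction of Krt8. Its only probe set, 1448169_at, had a signal of 655.1 on the orujo array and 553.6 on the olive oil array, a 1.18-fold higher value with a log2 ratio of 0.24, inside the probe set noise. The log2 ratio of Krt18 exceeded those of the Krt8 probe sets by 0.95, 1.13 and 0.51. These gaps lie between different genes, so the disagreement between probe sets of the same gene is no scale for them. The log2 ratios of the 2616 brightest measured probe sets, which come from many genes, had an SD of 0.47.

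Krt19, the type I keratin of bile ducts that hepatocytes lack, was the only marker to lie on different sides of the limit. Its single probe set, 1417156_at, had a signal of 15.9 on the orujo array and 42.1 on the olive oil array. Against the limit of 35.6 this gives a value at least 1.18-fold lower on the orujo array. The size beyond that bound depends on how dim signals are read: with the limit at the 25th percentile of the pooled signals (11.8), Krt19 counted as measured and was 2.65-fold lower. Within a list of 10 other epithelial keratins, none reached the pooled median. The list of Krt5, Krt7, Krt10, Krt13, Krt14, Krt15, Krt17, Krt20, Krt23 and Krt80 held 14 probe sets, all 14 below the limit on both arrays, with a highest signal of 28.4 on the orujo array and 25.7 on the olive oil array, from Krt10 in each case. Krt7, the other biliary keratin, had 10 on the orujo array and 3.2 on the olive oil array, so no ratio is given for it.

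The transcription factor and surface markers of duct cells had no measured probe set. Sox9 had 14.8 on the orujo array and 11.7 on the olive oil array with probe set 1451538_at, and with 1424950_at it had 1.4 on the orujo array and 1.5 on the olive oil array. Epcam, which encodes an epithelial adhesion molecule, had 12.3 on the orujo array and 5.4 on the olive oil array. Cldn4, a tight junction claudin, had 23.6 on the orujo array and 18.7 on the olive oil array. These genes gave signals on both arrays that were all under the limit, and a difference between diets was not detectable.

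Cd24a, which encodes a small glycosylated surface protein of duct cells that leukocytes and immature red cells also carry, came closest to the limit from below. Probe set 1448182_a_at had 15.8 on the orujo array and 32.4 on the olive oil array. Probe set 1416034_at had 12.8 on the orujo array and 21.9 on the olive oil array, while 1437502_x_at ran the other way, with 4.7 on the orujo array and 2.2 on the olive oil array. Thus the brighter pair of Cd24a probe sets was lower on the orujo array and the dimmest was higher there, with every value under 35.6.

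With the limit at the 25th percentile, 4 marker probe sets were added to the measured ones: Krt19, 2 of Cd24a and Cldn4. The log2 ratio of Krt19 was −1.40, those of Cd24a were −1.04 for 1448182_a_at and −0.77 for 1416034_at, and that of Cldn4 was 0.34. At least 2-fold lower were 2 of these 4, Krt19 and 1 probe set of Cd24a. Among the 5357 probe sets that only this lower limit adds, 4.89% were at least 2-fold lower and 3.92% at least 2-fold higher. The log2 ratios of these added probe sets had an SD of 0.60. The noise of a single probe set over all those then measured, bright ones included, was 0.38 against 0.30 with the pooled median.

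Anxa2, which encodes the calcium-dependent phospholipid-binding protein annexin A2, had 1 measured probe set of 3. Probe set 1419091_a_at had a signal of 107.8 on the orujo array and 161.5 on the olive oil array, 1.498-fold lower (log2 ratio −0.58). The other Anxa2 probe sets had 0.7 and 1.6 on the orujo array, and 1.5 and 9.1 on the olive oil array, all far below the pooled median. S100a10, whose protein p11 forms a complex with annexin A2, had a signal of 392.2 on the orujo array and 539.3 on the olive oil array, a log2 ratio of −0.46, and its second probe set gave −0.19. In the list of annexins and S100a10, 6 of 11 genes were measured, 4 with a negative and 2 with a positive ratio. None of them reached 1.5-fold in either direction by its brightest probe set. Anxa3 lay above the limit on the orujo array alone, with 51.0 there and 33.4 on the olive oil array, at least 1.43-fold higher. The median log2 ratio of that list was −0.24, from Anxa4 at −0.55, whose second probe set gave −0.78, to Anxa1 at 0.06. A dimmer measured probe set of Anxa6 was the only one of the list past 2-fold, with 75.8 on the orujo array and 170.2 on the olive oil array (−1.17), while its brightest gave −0.48. Over all 6640 measured genes the median was −0.02.

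Tspan8, a tetraspanin membrane protein of digestive epithelia, was measured in 1 of its 4 probe sets. Probe set 1420017_at had 92.2 on the orujo array and 85.6 on the olive oil array, 1.08-fold higher (log2 ratio 0.11). Its other probe sets had between 3.4 and 9.0 on the orujo array, and between 1.0 and 9.0 on the olive oil array. The probe sets of Tspan8 thus differed in whether they gave a signal, and the one above the limit differed between the arrays by less than the probe set noise. Among 20 other tetraspanin genes with a probe set, 15 were measured, of which 12 had a positive ratio, with a median of 0.16. The highest was Tspan4 at 0.83, the only one past 1.5-fold by its brightest probe set, and the lowest was Tspan15 at −0.31. A dimmer measured probe set of Cd151 gave −0.91, while its other 4 measured probe sets gave −0.14 to −0.03.

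As a group, the 6 measured marker probe sets had 4 negative and 2 positive log2 ratios and a median of −0.43, against −0.01 over all 10462 measured probe sets, 51.6% of which had a negative ratio. At least 2-fold higher were 0 of the 6 and at least 2-fold lower were 0, where 1.33% and 1.08% of all measured probe sets were. At least 1.5-fold lower were 2 of the 6, where 5.66% of all were, and at least 1.5-fold higher were 0, where 5.79% were. The 2 are probe sets of the same gene, Krt8. Counted by gene, with the brightest probe set of each, 1 of 4 measured genes was at least 1.5-fold lower, where 5.62% of 6640 measured genes were, and the median over the 4 was −0.24. The 4 measured genes thus did not share a sign. Krt8 and Anxa2 were lower, and Krt18 and Tspan8 were higher by less than the probe set noise. Of the 6 probe sets behind the median of −0.43, 3 are those of Krt8. Without the probe sets that share sequence with other transcripts, Krt8 and Anxa2 drop out, and the median over the remaining Krt18 and Tspan8 probe sets was 0.18.

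**Figure D2:**
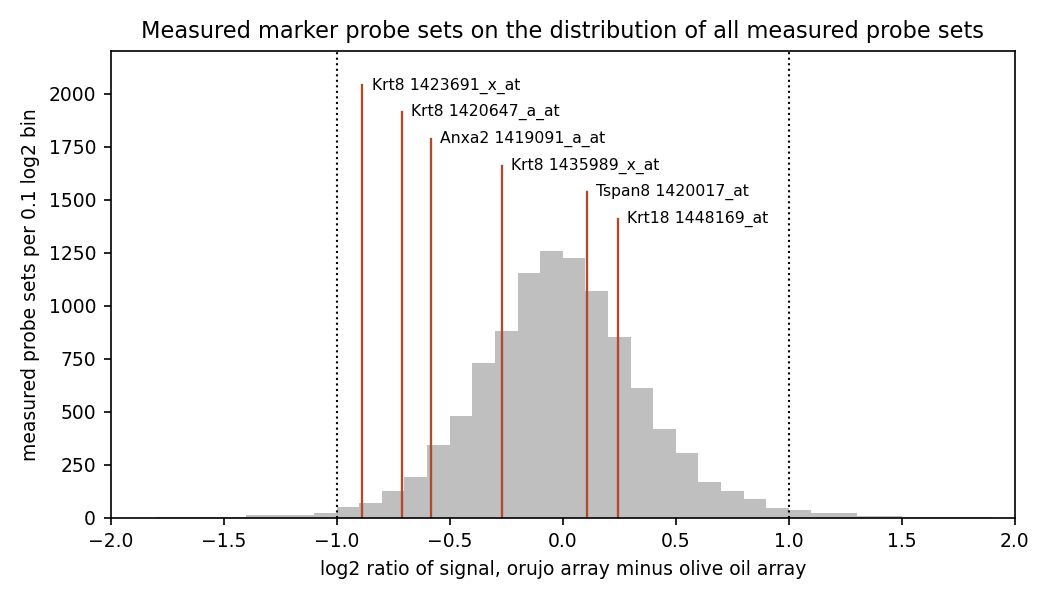
Number of measured probe sets per bin of 0.1 in the log2 ratio of signal, orujo array minus olive oil array (grey bars; 55 probe sets lie beyond the ends of the axis), with a red line at each measured marker probe set, whose height only carries the label, and dotted lines at a 2-fold difference. Krt8 1423691_x_at at −0.89 and Krt8 1420647_a_at at −0.71 lie on the lower flank, Krt18 at 0.24 and Tspan8 at 0.11 near the centre, and no marker passes 2-fold.

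Further genes of bile ducts and ductular cells, which were not among the 10, showed no common shift. Of 35 such genes 29 had a probe set, 12 were measured, 1 lay above the limit on each array alone and 15 lay below it on both. The measured genes had 7 positive and 5 negative ratios and a median of 0.04, with 0 past 2-fold. For comparison, 53.6% of all 12393 genes were measured, and 1.33% of those passed 2-fold upward and 0.98% downward. With shares this small, a count of 0 among 12 genes cannot set these genes apart. The further genes below the limit on both arrays included Cftr, the chloride channel of bile secretion, Krt7, Krt23, Muc1, Prom1 and Pkhd1. Pkhd1 encodes the fibrocystin of primary cilia. The highest ratio was that of Ddr1, a collagen receptor, with 100.4 on the orujo array and 66.1 on the olive oil array (log2 ratio 0.60), but its other 7 probe sets lay below the limit on both arrays. The lowest was that of Lgals3, galectin-3, which macrophages also make, with 111.0 on the orujo array and 137.5 on the olive oil array (−0.31). Aqp1, a water channel gene also expressed in endothelium, was at −0.25, and Clu, clusterin, which hepatocytes also make, was at −0.21 in its brightest probe set and between 0.33 and 0.74 in the others. Cd44, a hyaluronan receptor of progenitor-like cells and leukocytes, lay above the limit on the olive oil array alone, with 34.9 on the orujo array and 66.4 on the olive oil array, at least 1.87-fold lower on the orujo array.

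Claudins and the Notch and YAP pathway, which acts in duct formation, were described in the same way. Of 16 claudin genes with a probe set 5 were measured, and their median log2 ratio was 0.05. Cldn3, a claudin of hepatocytes and duct cells, had 537.3 on the orujo array and 520.0 on the olive oil array, and its 4 probe sets gave ratios from −0.11 to 0.19. Cldn2 was highest, with 290.5 on the orujo array and 195.5 on the olive oil array (0.57), and its second probe set had 148.4 on the orujo array and 89.4 on the olive oil array (0.73). Cldn5, an endothelial claudin, was lowest at −0.42. Of 11 genes of the Notch and YAP list 7 were measured, 6 of them with negative ratios by their brightest probe set, none past 1.5-fold, with a median of −0.09. Notch1 was lowest at −0.42, but its second measured probe set ran the other way, with 69.7 on the orujo array and 55.1 on the olive oil array (0.34). By brightest probe sets Hes1, a transcriptional target of Notch, was highest at 0.10, while Jag1, the ligand whose loss impairs bile duct formation, lay below the limit on both arrays.

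Other cell types can carry some of the 10 markers, and the transcripts of 1 of them differed strongly between the arrays. Acinar and duct cells of the pancreas express keratins 8 and 18, and pancreatic ducts express Krt19, Sox9 and Epcam. Of 16 exocrine pancreas markers with a probe set, 12 were measured and all 12 were at least 2-fold lower on the orujo array, with log2 ratios from −3.72 for Ctrb1 to −1.58 for Cela1 and a median of −2.60. Between these lay Cpa1, Cela2a, Clps, Cela3b, Cpb1, Ctrl, Prss2, Cel, Rnase1 and Reg1, which like them encode secreted proteins of acinar cells. The other 4 lay above the limit on the olive oil array alone, with bounds of at least 6.92-fold lower for Pnliprp1, 6.82-fold for Sycn, 2.33-fold for Gp2 and 1.19-fold for Pnliprp2. Summed over the 16 genes, the signal was 1120 on the orujo array and 7158 on the olive oil array, and no marker of the list was at 0. Of the markers named here as expressed in pancreas, Krt8 and Krt19 were lower on the orujo array. Krt18 was higher there, with 655.1 on the orujo array and 553.6 on the olive oil array. Sox9 and Epcam lay below the limit on both arrays. The part of pancreatic transcripts in any of these signals was not tested.

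Markers of hepatocytes, which contribute most of the RNA of a liver, were all measured (15 of 15) with a median of −0.01, between Cebpa at −0.39 and Arg1 at 0.49, and the summed signal was 64055 on the orujo array and 62397 on the olive oil array. All 4 mesothelial markers, whose cells express the same simple keratins, lay below the limit on both arrays (Msln, Upk3b, Wt1 and Gpm6a), as did 4 of 5 pancreatic islet markers, with Sst above it on the orujo array alone. Of 8 intestinal epithelium markers 4 were measured, from Fabp2 at −0.20 to Tff3 at 0.92. Apoa4 is also made by mouse liver, and Vil1, Cdx1, Cdx2 and Lct lay below the limit on both arrays. Lists of cells that also express Anxa2 or Cd24a had medians of 0.28 for macrophages (11 measured genes, Cd68 lowest at −0.36 and C1qc highest at 0.47), 0.00 for stellate and matrix genes (9 genes, Acta2 at −0.69 and Col3a1 at 0.72) and 0.10 for endothelium (8 genes, Kdr at −0.30 and Plvap at 0.36). The median was −0.07 for neutrophils (6 genes, with Mmp9 2.01-fold lower and Lcn2 8.24-fold higher). Lcn2 stood apart in signal, at 400.9 with olive oil and 3304.6 with orujo, whereas no other measured neutrophil gene exceeded 78.6 (Mmp9, olive oil array). Which cells made the Lcn2 transcript was not tested. Another 4 neutrophil genes lay above the limit on the orujo array alone, with bounds of at least 1.71-fold higher for S100a8, 1.40-fold for Csf3r, 1.38-fold for S100a9 and 1.13-fold for Mmp8. Only 2 genes each were measured for B cells (Cd74 at −0.12 and Cd22 at 0) and for the red cell lineage (Klf1 at −0.43 and Alas2 at 0.20). On the same arrays the log2 ratio was 2.54 for the control probe set at the 5′ end of 18S ribosomal RNA. It was 2.48 for that in its middle and 0.34 for that at its 3′ end. The β-actin controls lay between −0.27 and 0.01, and the Gapdh controls between 0.09 and 0.15. The part of these differences in the marker ratios was not tested.

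**Figure D3:**
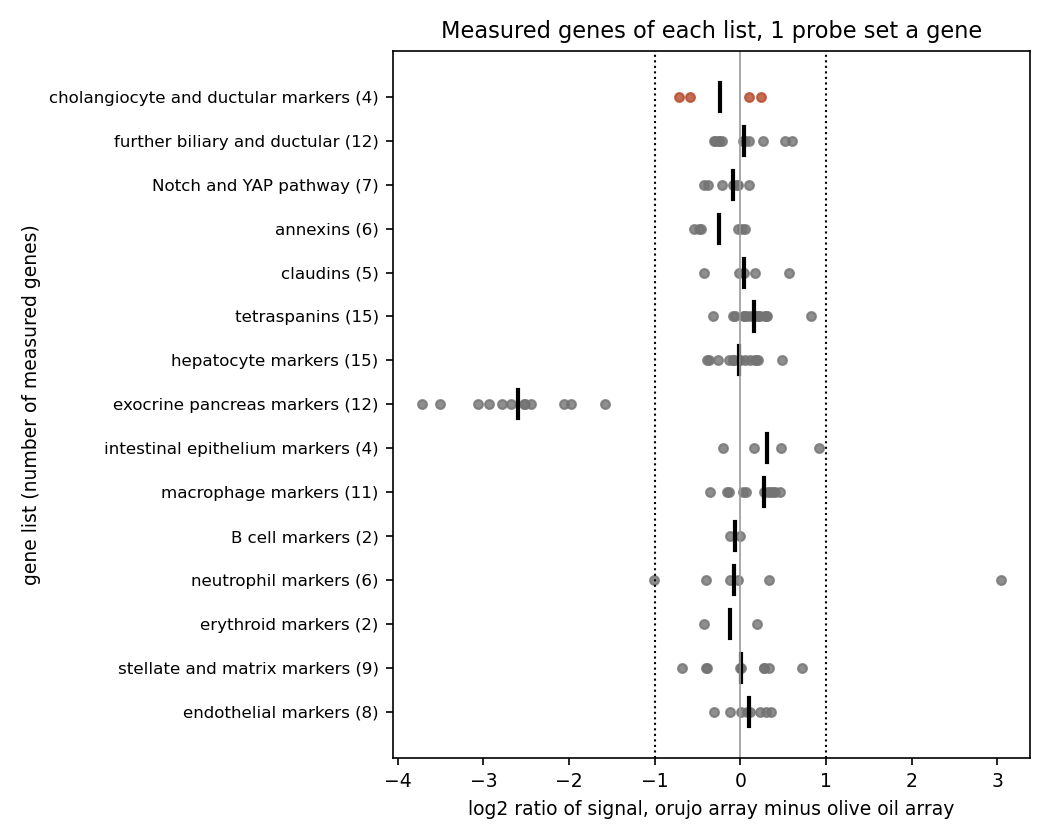
Log2 ratio of signal, orujo array minus olive oil array, for every measured gene of each list (points, 1 probe set a gene), with the list median as a black bar and dotted lines at a 2-fold difference. The 4 measured marker genes lie between −0.71 and 0.24, while the 12 measured exocrine pancreas genes lie between −3.72 and −1.58.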

How the data were processed

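Liver RNA was hybridised to 1 Affymetrix array per diet, from about 8 µg of total RNA per the labels. The authors deposited a probe set intensity on a linear scale with 1 decimal; neither the summary software nor detection calls are known here. The 2% trimmed mean over all 22690 deposited probe sets came to 100.05 for each array, which shows scaling to a common mean before deposit. Arrays have no read depth; their number sets the precision.

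The intensities were used as deposited, without the 64 control probe sets. Values under the pooled 50th percentile (35.6) were set to it before taking log2. Symbols came from the platform annotation: 20380 probe sets had 1 symbol, 691 several and 1555 none, and only the first were named. Of these, 20351 matched the RefSeq table of GRCm38.p6 by Entrez identifier, with 0 symbols changed. Coordinates are not printed, since no build is known for the probe sets.

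In gene lists each gene was represented by its probe set of highest mean log2 value. The text names all 10 markers and, from each other list, the highest and lowest measured ratio and every gene 2-fold apart; S100a10, Aqp1, Clu, Cd44, Cldn3, Anxa6, Cd151, the genes above the limit on 1 array and the genes named as below the limit were picked after their values were seen. The members and the 17 other lists were chosen with earlier results of these data known. The calculation was tested on simulated data (numpy 2.4.6, statsmodels 0.14.6 for loess, Python 3.11.15). Alternatives were 4 other scalings, 2 other floors, log2(value + floor), and 4 choices of probe sets.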

Additional observations from a re-analysis of the deposited data

How the results depend on the processing

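The log2 ratios of the measured marker probe sets and genes kept their sign and stayed within the probe set noise (0.30) of the reported value under every alternative that gave one. For a single measured probe set, another floor or choice of probe sets cannot alter the ratio. Only the other scalings and log2(value + floor) could move it. Krt8 1420647_a_at ranged from −0.72 to −0.66, Krt8 1423691_x_at from −0.89 to −0.81, 1435989_x_at from −0.27 to −0.23, Krt18 from 0.23 to 0.26, Anxa2 from −0.58 to −0.46 and Tspan8 from 0.08 to 0.12. With the floor at the 25th percentile, 10 marker probe sets were measured, 2 at least 2-fold lower and 5 at least 1.5-fold lower, with a median of −0.65 against the reported −0.43, since dimmer probe sets then count. Without probe sets of shared sequence, 2 were measured, 0 were at least 1.5-fold lower and the median was 0.18, since Krt8 and Anxa2 have no other measured probe set. The count at least 1.5-fold lower was 1 with 1 value a gene, by the brightest probe set or by the mean. It was also 1 without the _x_at and _s_at probe sets, an alternative chosen after seeing the data. In each of these settings the median was −0.24. With log2(value + floor) for every probe set, the median over all 19 was −0.0039, since dim probe sets then enter with ratios near 0, and 3 were at least 1.5-fold lower; this setting gives no count above a floor. With the floor at the 75th percentile Tspan8 was no longer measured and the median was −0.58. The median of the further biliary and ductular genes ran from −0.23 with that floor to 0.07 under quantile normalization, against the reported 0.04. The 4 other scalings changed no count of marker probe sets. No replicate could be left out and no paired analysis was possible because each diet has 1 array.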
